A study of Mus musculus with 9 samples.

Results

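The circadian clock genes of the mouse hippocampus were followed gene by gene and mouse by mouse. The group was fixed by name and held 10 genes, Clock, Arntl, Per1, Per2, Per3, Cry1, Cry2, Nr1d1, Dbp and Ciart, out of 54532 genes counted. All 10 passed the filter on low counts and were among the 19782 genes tested. Each mouse gave 1 hippocampal RNA-seq library, so that n counts animals.

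All 9 mice were N4 Ube3a m-/p+ mice, a model of Angelman syndrome that carries a mutated maternal copy of the ubiquitin ligase gene Ube3a and had been backcrossed for 4 generations to 129Sv/Ev. The Ant-134 group (n = 5) had received 0.5 nmol of Ant-134, a locked nucleic acid oligonucleotide complementary to the microRNA miR-134, in a brain ventricle on postnatal day 21. The Scr group (n = 4) had received the same dose of a scrambled oligonucleotide on the same day. Audiogenic seizures, which are set off by sound, were induced in both groups on days 22, 24 and 26, and the brains were taken on day 27, 24 h after the last one. Tissue came from saline-perfused animals that were alive on that day. No wild-type, untreated or seizure-free group was sequenced with them, the sexes of the animals were not recorded, and the clock time of dissection is not given in the sources used here. A difference between groups in the hour at which brains were taken therefore cannot be told apart from a difference between treatments. The study reported milder seizures under Ant-134 and a tendency to better survival. Seizure burden and survival to day 27 cannot be told apart from treatment either.

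The molecular clock is a feedback loop of transcription. CLOCK and BMAL1, the protein of Arntl, bind E-box sequences and switch on the Per and Cry genes, whose proteins then inhibit CLOCK and BMAL1. NR1D1, also called REV-ERB alpha, represses Arntl in a second loop, and DBP and CIART are made from clock-driven output genes, DBP as an activator at D-box sequences and CIART as a repressor of CLOCK and BMAL1. The hippocampus holds such a loop outside the master clock of the suprachiasmatic nucleus, and Per1 and Per2 are also induced by neuronal activity and by glucocorticoids.

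Libraries held between 28583298 and 41978113 counts on genes, scaling factors lay between 0.984 and 1.01, and mitochondrial genes took between 3.34% and 4.01% of the counts. The 3 markers each of dentate granule cells, CA1 and CA3 were detected in the libraries. Of the 5 suprachiasmatic markers, Six6 and Lhx1 stayed below 0.5 CPM in all 9, Prok2 reached 0.66 CPM and Avp 2.10 CPM. Vip lay between 11.6 and 17.6 CPM, so that the summed level of 13.0 to 18.6 CPM was mostly that of Vip. The summed level of the choroid plexus markers Ttr, Kl and Folr1 varied most, from 65.2 to 2510 CPM in Ant-134 mice and from 76.1 to 1980 CPM in Scr mice. Among the clock genes 1 library, Scr replicate 3, lay farthest from the others, and results that rest on it are given with and without it. Ube3a itself stood at 90.2 ± 6.26 CPM (SD, n = 5) under Ant-134 and 92.4 ± 4.81 CPM (SD, n = 4) under Scr, without separating the alleles. Levels are given as CPM, the counts of a gene relative to the scaled library total, and in whole tissue fewer cells of a type and less RNA per cell cannot be told apart.

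Promoters of 4 members are shown because CLOCK, BMAL1 and DBP act through short sequences in such regions. Each run is 300 bases of RefSeq's GRCm38.p6, 250 before the transcription start and 50 after it, in the direction of the gene, and capitals mark the E-box CACGTG or the D-box TTATGTAA.
Ciart, chr3:95882179-95882478, minus strand: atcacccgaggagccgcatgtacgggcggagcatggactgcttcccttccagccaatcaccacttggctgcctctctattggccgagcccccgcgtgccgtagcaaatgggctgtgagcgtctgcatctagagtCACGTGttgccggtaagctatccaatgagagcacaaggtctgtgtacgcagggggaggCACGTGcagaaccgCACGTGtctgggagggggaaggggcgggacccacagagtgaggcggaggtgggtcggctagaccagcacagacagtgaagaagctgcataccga
Per1, chr11:69098699-69098998, plus strand: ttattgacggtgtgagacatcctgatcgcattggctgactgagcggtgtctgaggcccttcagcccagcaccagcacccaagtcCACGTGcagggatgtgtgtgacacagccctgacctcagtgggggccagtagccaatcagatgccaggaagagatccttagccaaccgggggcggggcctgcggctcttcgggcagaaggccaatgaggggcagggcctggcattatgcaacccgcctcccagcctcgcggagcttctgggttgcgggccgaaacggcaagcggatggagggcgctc
Per3, chr4:151044616-151044915, minus strand: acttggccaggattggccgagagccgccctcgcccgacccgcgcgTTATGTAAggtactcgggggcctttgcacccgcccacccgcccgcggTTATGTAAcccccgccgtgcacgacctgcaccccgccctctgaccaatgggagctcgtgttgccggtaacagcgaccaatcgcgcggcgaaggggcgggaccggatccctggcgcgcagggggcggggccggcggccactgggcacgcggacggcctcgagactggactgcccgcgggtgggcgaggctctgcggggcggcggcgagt
Dbp, chr7:45704997-45705296, plus strand: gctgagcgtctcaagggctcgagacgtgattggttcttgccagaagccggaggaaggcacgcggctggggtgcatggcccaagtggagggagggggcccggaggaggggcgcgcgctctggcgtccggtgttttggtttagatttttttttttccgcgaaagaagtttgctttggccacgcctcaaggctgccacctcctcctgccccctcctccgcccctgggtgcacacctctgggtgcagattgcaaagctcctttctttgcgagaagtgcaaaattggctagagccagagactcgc
The table held 13 promoters of 9 members, and Per2 was not among them. The E-box, which reads the same on both strands, lay in Ciart at 116, 58 and 44 bases before the start, in Per1 at 166 and in Cry1 at 60. Of all 32851 promoters, 7.15% held it. The D-box, searched as TTATGTAA and on the other strand as TTACATAA, lay only in Per3 among the members' promoters, at 205 and 158 bases before the start, and in 0.938% of all promoters. The Dbp window held neither, which says only that these letters are not within those 300 bases.

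The treatment was aimed at miR-134, which lies at chr12:109734145-109734166 of GRCm38.p6, plus strand. Its mature sequence is shown with the seed, bases 2 to 8, in capitals, beside the only match to it among the members, in Clock (gene at chr5:76209868-76304792, minus strand, GENCODE M21).
mmu-miR-134-5p: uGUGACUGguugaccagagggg
Clock 3′ UTR, around the match: cttgtttggggCAGTCACtaccctaccctc
The seed's target letters, CAGTCAC or AGTCACA, occurred in Clock, at base 4933 of the 6834 in its longest 3′ UTR, and in none of the other 9 members. Among 15359 tested genes with a 3′ UTR, 19.4% held a match. Clock was at 86.3 ± 5.10 CPM under Ant-134 and 85.8 ± 1.78 CPM under Scr, a log2 fold change of 0.0076 ± 0.047 (SE) with an unadjusted p of 0.873 in edgeR's quasi-likelihood test (exact permutation p = 0.905).

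Levels were compared between genes per length, as deposited FPKM over the 9 mice. Nr1d1 was the most abundant transcript of the loop with 23.3 ± 1.62 FPKM (SD, n = 9), followed by Cry2 with 19.1 ± 0.863, Dbp with 16.8 ± 3.34 and Per1 with 15.5 ± 1.45 FPKM. A step down led to Clock with 6.21 ± 0.265 FPKM, Per3 with 5.55 ± 0.424, Per2 with 4.99 ± 0.457 and Ciart with 4.08 ± 0.676 FPKM. Arntl with 3.51 ± 0.223 FPKM and Cry1 with 2.42 ± 0.253 FPKM were the lowest. The ranges of neighbours in this order were apart between Nr1d1 and Cry2, between Per1 and Clock and between Arntl and Cry1, and overlapped for the other neighbours.

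Ant-134 and Scr mice were compared across all genes to ask which transcripts differed after miR-134 inhibition and repeated seizures. None of the 10 clock genes passed an unadjusted p of 0.05 in edgeR, where 4.18% of all tested genes passed, 2.69% lower and 1.49% higher in Ant-134. After Benjamini-Hochberg adjustment 0% of all genes passed in edgeR, against 827 genes at the unadjusted threshold, and the adjusted p of the clock genes was 0.998 or above. Other fits passed a few genes after adjustment, 16 in DESeq2, 14 in edgeR without a filter on low counts, 2 with the replicate number as a block, 17 without Ant-134 replicate 1 and 1 each without Ant-134 replicate 2, 3 or 4, and no clock gene was among them. The groups overlapped for all 10 members, and 1.54% of all tested genes had groups that did not overlap. Fitted values were lower under Ant-134 for 8 of 10 members, with a median log2 fold change of -0.045, beside 48.8% of all genes and a median of 0.0026. Without Scr replicate 3 the count was 7 of 10 and the median -0.024, and over all alternative fits the count lay between 6 and 9.

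**Figure D1:**
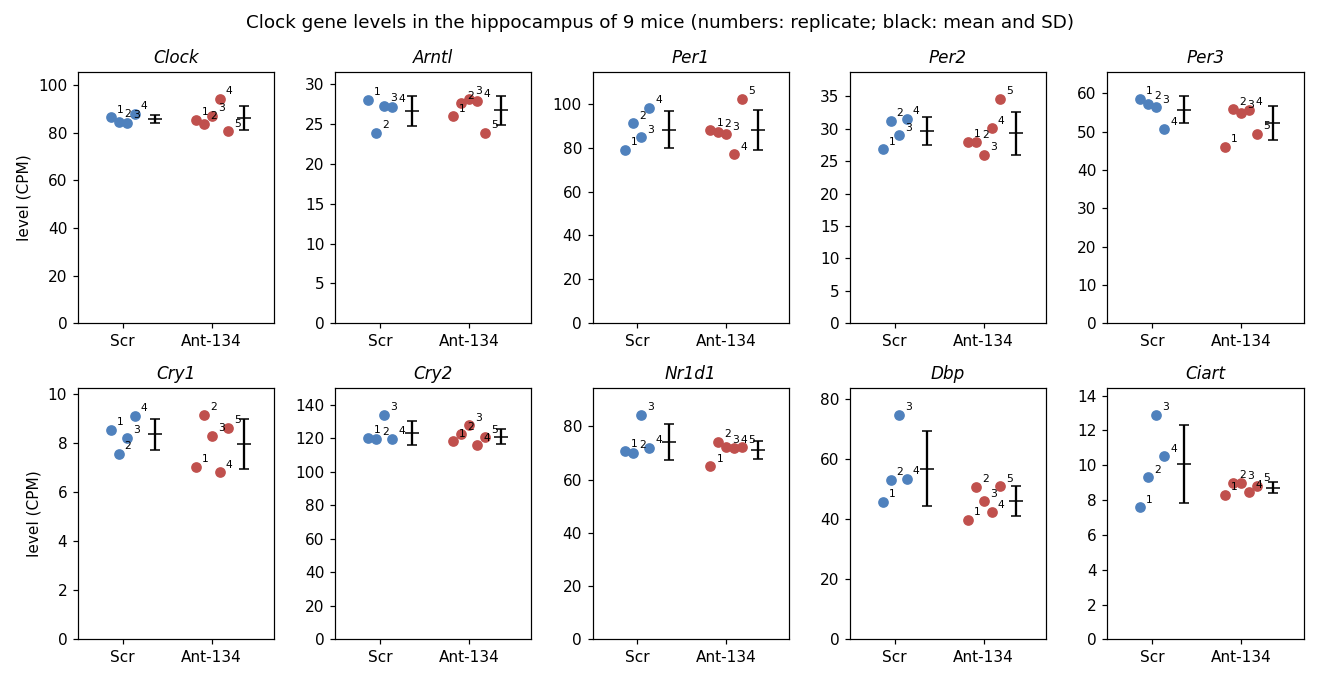
Level of each clock gene in CPM (vertical axes, starting at 0) in the Scr mice (blue) and the Ant-134 mice (red); numbers are replicates, and black marks show the mean and SD of each group. Dbp and Ciart reached their highest values in Scr replicate 3, at 74.6 and 12.9 CPM, and the groups overlap in every panel.

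The activators Clock and Arntl differed little between the groups. Clock ran from 80.6 CPM in Ant-134 replicate 5 to 94.3 CPM in Ant-134 replicate 4, and the 4 Scr mice lay between 84.2 and 88.0 CPM. Arntl was at 25.99, 27.6, 28.2, 27.9 and 23.9 CPM in Ant-134 replicates 1 to 5 and at 28.1, 23.9, 27.3 and 27.2 CPM in Scr replicates 1 to 4. A low animal was present in each group, Ant-134 replicate 5 and Scr replicate 2, and the other mice were close together. The group means of Arntl were 26.7 ± 1.78 and 26.6 ± 1.85 CPM, with a log2 fold change of 0.0065 ± 0.067 (edgeR p = 0.924; exact permutation p = 0.897). Both activators changed sign between alternative fits, with ranges of -0.027 to 0.031 for Clock and -0.043 to 0.046 for Arntl.

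The Per genes, whose proteins form the inhibitory arm together with the CRY proteins, differed between animals more than between groups. Per1 was at 88.0, 87.2, 86.2, 76.9 and 102 CPM in the Ant-134 mice and at 78.9, 91.2, 84.7 and 98.2 CPM in the Scr mice. Per2 was at 28.0, 27.9, 26.02, 30.1 and 34.6 CPM in the Ant-134 mice and at 26.8, 31.2, 29.0 and 31.5 CPM in the Scr mice. Ant-134 replicate 5 had the highest level of both genes, and the rest of its group lay within or below the Scr range. The means of Per1 were 88.1 ± 9.09 CPM under Ant-134 and 88.2 ± 8.29 CPM under Scr (log2 fold change -0.0024 ± 0.079, edgeR p = 0.976; exact permutation p = 0.96), and those of Per2 were 29.3 ± 3.30 and 29.7 ± 2.19 CPM (-0.016 ± 0.079, edgeR p = 0.842; exact permutation p = 0.849). Without Ant-134 replicate 5 the log2 fold changes were -0.061 for Per1 and -0.083 for Per2, still short of the threshold.

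Ant-134 replicate 5 also stood apart in activity-regulated genes, the immediate early genes that follow neuronal firing. The summed level of 12 such genes was 706.5 CPM in that mouse and between 493.2 and 546.2 CPM in the other 4 Ant-134 mice, and it lay between 456.6 and 545.5 CPM in the Scr mice. Fos alone was at 31.0 CPM in that mouse and between 10.1 and 15.9 CPM in the other 8. None of the 12 genes passed the unadjusted threshold between the groups. Over the 9 mice the sum correlated with Per1 with r = 0.73 (exact permutation p = 0.0198) and rho = 0.80 (exact permutation p = 0.0138), and r was 0.76 without the 2 mice farthest from the median of the sum. Of 20 relations of this kind computed, this did not pass adjustment (0.198 for r and 0.138 for rho), and without Ant-134 replicate 5 r was 0.50. With Per2 the sum had r = 0.63 (exact permutation p = 0.0695) and rho = 0.42 (exact permutation p = 0.27). Without Ant-134 replicate 5 that r was 0.081. With Arntl r was -0.68 (exact permutation p = 0.0331), and -0.38 without that mouse. Neither passed adjustment.

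Per3, a further member of the Per family, was lower under Ant-134 in all 18 alternative fits and passed in none. Its levels were 46.0, 55.8, 54.9, 55.7 and 49.4 CPM in the Ant-134 mice and 58.6, 57.2, 56.4 and 50.7 CPM in the Scr mice. Ant-134 replicates 1 and 5 and Scr replicate 4 were low, the other 6 mice lay between 54.9 and 58.6 CPM, and 3 Scr mice were above every Ant-134 mouse. The means were 52.4 ± 4.43 and 55.7 ± 3.48 CPM, a log2 fold change of -0.089 ± 0.065 (edgeR p = 0.19; exact permutation p = 0.254).

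Per3 moved against the summed level of 8 glucocorticoid-induced genes, among them Fkbp5, Sgk1 and Tsc22d3. That sum was 546.7, 506.5, 518.1, 481.9 and 525.9 CPM in the Ant-134 mice and 449, 474.1, 492.3 and 575.3 CPM in the Scr mice. The highest sums, in Scr replicate 4 and Ant-134 replicate 1, belonged to mice with low Per3, and the lowest, in Scr replicate 1, to the mouse with the highest Per3. Over the 9 mice r was -0.81 (exact permutation p = 0.00598, adjusted 0.12 over the 20 relations) and rho was -0.90 (exact permutation p = 0.00203, adjusted 0.0406). Without the 2 mice farthest from the median sum r was -0.88, and after centring each group on its mean it was -0.80 (permutation p within groups 6.9e-04, adjusted 0.0139). With Per1 the same sum had r = 0.67 (exact permutation p = 0.0456) and rho = 0.63 (exact permutation p = 0.076), which did not pass adjustment (0.228 and 0.443), and r = 0.41 without 2 mice. With Per2 it had r = 0.28 (exact permutation p = 0.472) and rho = 0.28 (exact permutation p = 0.463), and r = -0.18 without the same 2 mice. None of the 8 genes passed the unadjusted threshold between the groups.

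The Cry genes, which encode the other inhibitors, did not separate the groups either. Cry1, the rarest member, ran from 6.81 to 9.15 CPM under Ant-134 and from 7.57 to 9.11 CPM under Scr, and rested on 208 to 352 counts per library. Its log2 fold change was -0.064 ± 0.11 (edgeR p = 0.565; exact permutation p = 0.532). Cry2 was at 118, 122, 128, 116 and 121 CPM in the Ant-134 mice and at 120.5, 119, 134 and 119.8 CPM in the Scr mice. A single animal, Scr replicate 3, was above the rest, and the other 3 Scr mice were within 119.4 to 120.5 CPM. The log2 fold change of Cry2 was -0.028 ± 0.046 (edgeR p = 0.556; exact permutation p = 0.579), and 0.014 without Scr replicate 3.

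Nr1d1, the repressor of Arntl, showed the same animal at the top. It was at 65.1, 74.3, 72.3, 72.0 and 72.2 CPM in the Ant-134 mice and at 70.7, 70.1, 84.3 and 71.9 CPM in the Scr mice. Apart from a low Ant-134 replicate 1 and a high Scr replicate 3, the other 7 mice lay between 70.1 and 74.3 CPM. The means were 71.1 ± 3.53 and 74.3 ± 6.73 CPM, a log2 fold change of -0.062 ± 0.059 (edgeR p = 0.31; exact permutation p = 0.516). Without Scr replicate 3 the log2 fold change was 0.0050.

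Dbp, the output activator, had the largest fitted difference of the 10 genes. It was at 39.8, 50.8, 46.0, 42.3 and 51.0 CPM in the Ant-134 mice and at 45.8, 53.0, 74.6 and 53.5 CPM in the Scr mice. All 5 Ant-134 mice were below the Scr mean, 3 Scr mice were above the highest Ant-134 mouse, and Scr replicate 1 lay within the Ant-134 range. The means were 46.0 ± 4.97 and 56.7 ± 12.5 CPM, a log2 fold change of -0.30 ± 0.14 that missed the unadjusted threshold in edgeR (p = 0.0589) and in the exact permutation test (p = 0.0873, two-sided). In DESeq2, the tool named in the study's methods, the same contrast gave -0.30 ± 0.12 with an unadjusted p of 0.0136 and an adjusted p of 1.

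Ciart, a clock-driven repressor, followed Dbp. It was at 8.32, 8.99, 8.97, 8.45 and 8.84 CPM in the Ant-134 mice and at 7.58, 9.32, 12.9 and 10.5 CPM in the Scr mice. The Ant-134 mice were close to each other, and the Scr mice reached from below all of them to above all of them. The means were 8.71 ± 0.310 and 10.1 ± 2.22 CPM, a log2 fold change of -0.21 ± 0.12 (edgeR p = 0.114; exact permutation p = 0.262).

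Both output genes were lower under Ant-134 in all 18 alternative fits, but the size depended on single Scr mice. Without Scr replicate 3, Dbp was at -0.14 ± 0.086 and Ciart at -0.069 ± 0.11 on the log2 scale, both short of the unadjusted threshold in edgeR. Without Scr replicate 1 they were at -0.40 ± 0.13 and -0.33 ± 0.11, both past the unadjusted threshold in edgeR, with an adjusted p of 0.9997 for both. In that fit 761 of 20062 genes passed the unadjusted threshold. Choroid plexus marker sums were 1984 CPM in Scr replicate 3 and 2510 CPM in Ant-134 replicate 1, the libraries with the highest and the lowest Dbp. In both groups these were the highest sums, 0 of the 3 markers passed between the groups, none was at 0, and their part in the result was not tested. Of the other marker lists, the 3 microglia markers had fitted values below 0, with sums of 156 to 192 CPM under Ant-134 and 185 to 218 CPM under Scr, and Csf1r passed the unadjusted threshold at -0.23. The 3 endothelium markers were also below 0, with sums of 75 to 108 against 78.6 to 121 CPM. The 5 erythrocyte markers were above 0, with sums of 69 to 403 against 44 to 91.7 CPM. So were the 3 oligodendrocyte markers and the 3 suprachiasmatic markers tested. No endothelium, erythrocyte, oligodendrocyte or suprachiasmatic marker passed. Of the 3 dentate markers Dsp passed at 0.18, while Prox1 was at 0.054 and C1ql2 at -0.11, with sums of 174 to 192 against 156 to 204 CPM. Of the 3 thalamus markers Lef1 passed at 0.44, while Prkcd was at 0.10 and Tcf7l2 at -0.062, with sums of 42.5 to 84.7 against 48.3 to 56.3 CPM. None of these markers was at 0, and their part in the result was not tested either.

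**Figure D2:**
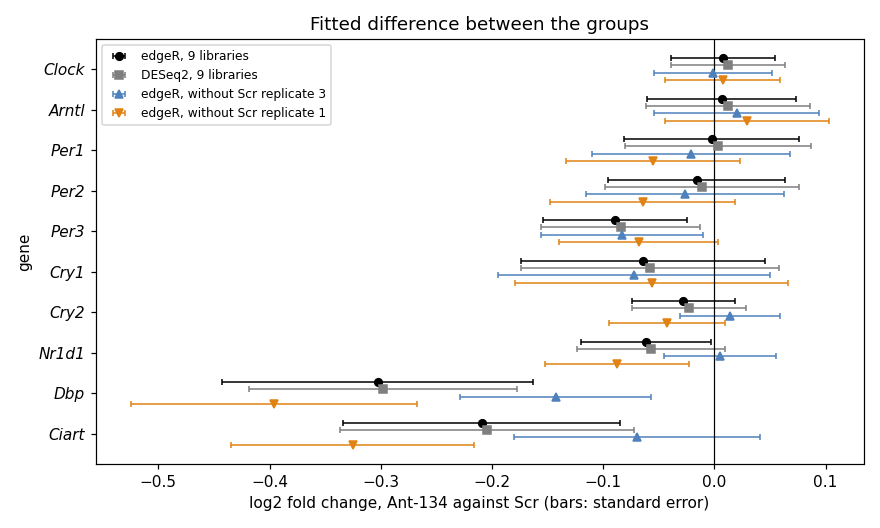
Fitted log2 fold change of each clock gene, Ant-134 against Scr (horizontal axis; 0 is no difference), with its standard error, in edgeR and DESeq2 over 9 libraries and in edgeR without Scr replicate 3 or Scr replicate 1. Dbp and Ciart lie to the left of 0 in all 4 fits, and Dbp moves from -0.30 to -0.14 without Scr replicate 3 and to -0.40 without Scr replicate 1.

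The deviations of each mouse from the mean of all 9 showed which animals carried these differences. Scr replicate 3 had the highest level of Cry2, Nr1d1, Dbp and Ciart, by 0.14, 0.22, 0.58 and 0.48 on the log2 scale, while its Clock, Arntl, Cry1 and Per genes were within 0.07 of the mean. Ant-134 replicate 1 had the lowest Per3, Nr1d1 and Dbp, at -0.22, -0.15 and -0.33. Ant-134 replicate 4 was lowest in Per1, Cry1 and Cry2 and highest in Clock. Over the 10 genes the root mean square deviation was 0.253 in Scr replicate 3 and between 0.0675 and 0.158 in the other 8 mice.

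**Figure D3:**
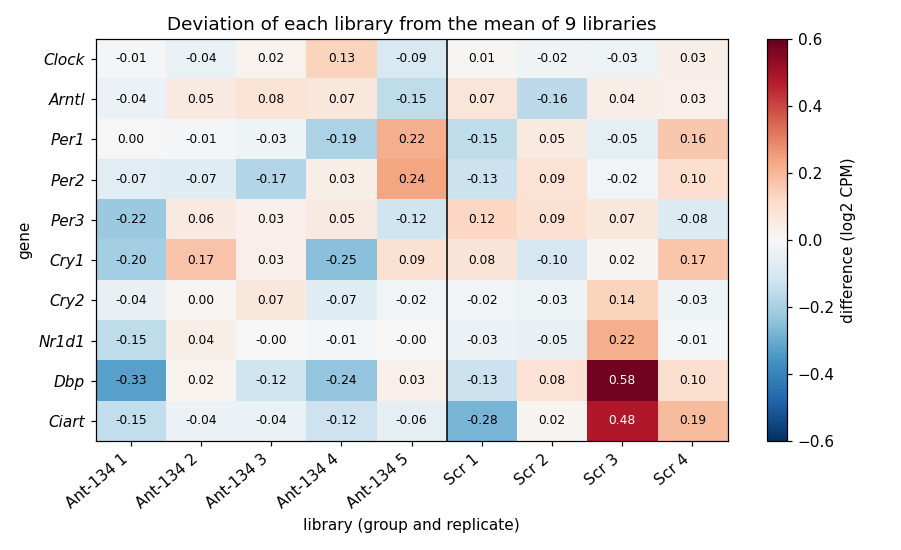
Deviation of each library (columns) from the mean of the 9 libraries for each clock gene (rows), in log2 CPM, red for above and blue for below the mean. The darkest cells are Dbp and Ciart in Scr replicate 3, at 0.58 and 0.48.

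The spread between mice of a group was then described for each member, as the SD of log2 CPM about the group means. Dbp had 0.229 and Ciart 0.212, higher than 94.6% and 93.5% of the 11143 genes whose level was at least that of the rarest member. Cry1 followed with 0.158, Per1 with 0.142, Per2 with 0.138 and Per3 with 0.112. Arntl with 0.101 and Nr1d1 with 0.0993 were near the median gene, which had 0.0915, and Clock and Cry2 had the lowest values with 0.0664 each. Clock was at 0.0404 without Ant-134 replicate 4, and Cry2 was at 0.0440 without Scr replicate 3. Counting error alone would give between 0.0227 and 0.0883, so that the observed spread was from 1.79 times that value in Cry1 to 6.38 times in Dbp. Without Scr replicate 3 the SD was 0.148 for Dbp, 0.143 for Ciart and 0.061 for Nr1d1, and Dbp and Ciart were then higher than 83.3% and 81.8% of such genes. Without Scr replicate 1 Ciart was higher than 80.3%. In total 8 of 10 members were above the median gene, and between 6 and 8 when a mouse was left out. That set holds genes of any abundance above the rarest member, and counting error is larger in rarer genes. Against edgeR's dispersion trend at their own abundance, to which the gene estimates are drawn, only 2 of 10 were above, Dbp with a coefficient of variation of 14.6% against 8.202% and Per1 with 8.79% against 7.38%. Ciart was at 14.01% against 14.3% and Cry1 at 12.5% against 15.2%.

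**Figure D4:**
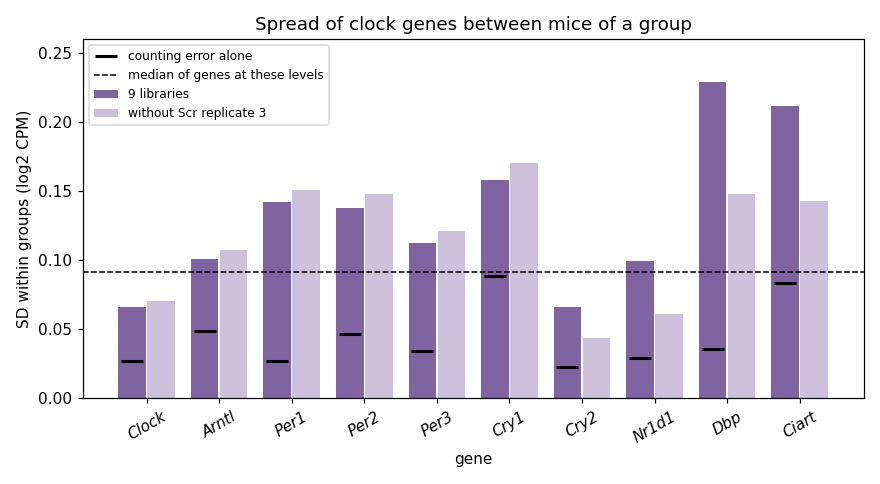
SD of log2 CPM about the group means for each clock gene (bars from 0), over 9 libraries (dark) and without Scr replicate 3 (light); short black lines mark the SD from counting error alone and the dashed line the median of 11143 genes. Dbp and Ciart have the tallest bars, 0.229 and 0.212, and fall to 0.148 and 0.143 without that mouse.

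Members of the loop were compared with each other over the 9 mice, in 45 pairs, to see which deviated together. In 7 pairs Pearson's r had an exact permutation p below 0.05, and after adjustment over the 45 pairs none did, with a smallest adjusted p of 0.132 for r and 0.0913 for rho. Dbp and Ciart were the closest pair, with r = 0.90 (exact permutation p = 0.00294) and rho = 0.90 (exact permutation p = 0.00203). Without Ant-134 replicate 1 and Scr replicate 3, the mice farthest from the median of Dbp, r was 0.70 (exact permutation p = 0.0736), and after centring each group it was 0.88 (permutation p within groups 0.00486). Without Scr replicate 3 alone r was 0.68.

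Nr1d1 and Dbp had r = 0.88 (exact permutation p = 0.00868), but rho was 0.43 (exact permutation p = 0.25) and r fell to 0.0036 without the same 2 mice. That relation rested on those mice. The same held for Nr1d1 and Ciart, with r = 0.78 (exact permutation p = 0.0296), rho = 0.48 (exact permutation p = 0.194) and r = 0.16 without them. Cry2 correlated with Nr1d1 with r = 0.79 (exact permutation p = 0.0182) and rho = 0.80 (exact permutation p = 0.0138), and r was 0.41 without its 2 farthest mice and 0.37 without Scr replicate 3. Cry2 and Dbp had r = 0.74 (exact permutation p = 0.0367) and rho = 0.52 (exact permutation p = 0.162), with r = 0.62 without 2 mice and 0.23 without Scr replicate 3.

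The correlations of Per1 and Per2 with Arntl were negative. Those of Per3, Cry1 and Cry2 with Arntl were positive, with r = 0.35, 0.13 and 0.27, and Per3 had r = -0.57 with Per1 and -0.33 with Per2. None of these 5 had an exact permutation p below 0.05. Per2 and Arntl had r = -0.73 (exact permutation p = 0.025) and rho = -0.77 (exact permutation p = 0.0214), with r = -0.45 without Ant-134 replicates 3 and 5. Per1 and Arntl had r = -0.66 (exact permutation p = 0.0502) and rho = -0.77 (exact permutation p = 0.0214), with r = -0.40 without Ant-134 replicates 4 and 5. Per1 and Per2 had r = 0.68 (exact permutation p = 0.0439) and rho = 0.62 (exact permutation p = 0.0857), with r = 0.77 without Ant-134 replicates 4 and 5 and r = 0.44 without Ant-134 replicate 5 alone, the mouse highest in both genes. Without that mouse r was -0.53 for Per2 and Arntl and -0.46 for Per1 and Arntl. Dbp and Arntl had r = -0.078 and rho = -0.37 (exact permutation p = 0.336), and r was -0.37 without Scr replicate 3. These points share the library, so that depth and RNA composition of a mouse enter both genes of a pair.

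**Figure D5:**
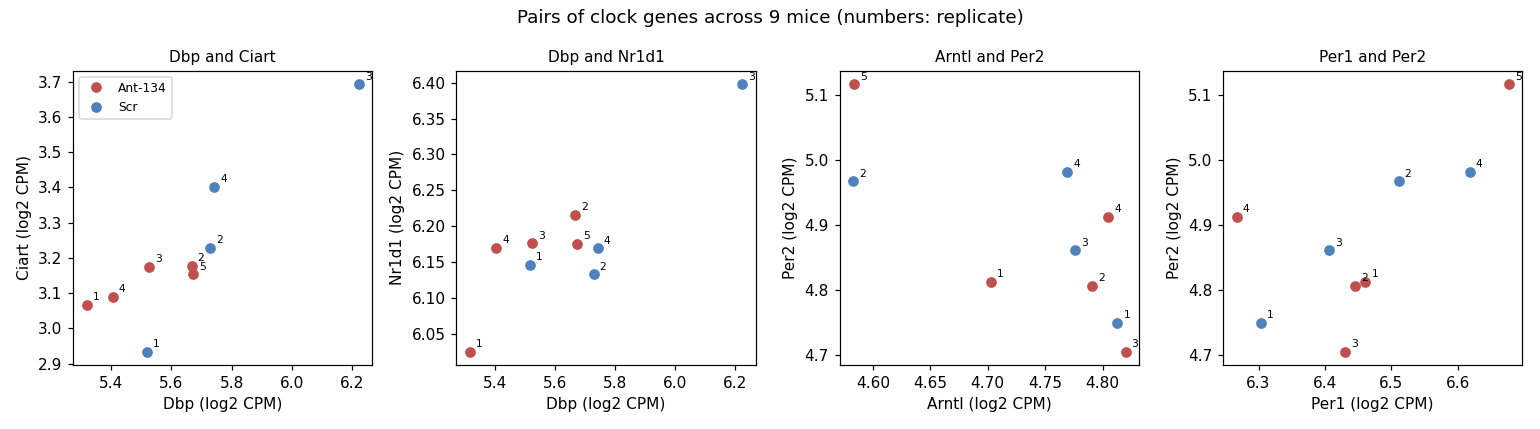
Levels of 4 pairs of clock genes in log2 CPM, a point for each of the 9 mice (red Ant-134, blue Scr; numbers are replicates; axes do not start at 0). Dbp and Ciart rise together (r = 0.90), the Dbp and Nr1d1 panel depends on Scr replicate 3 and Ant-134 replicate 1, Per2 is lower where Arntl is higher (r = -0.73, or -0.53 without Ant-134 replicate 5), and Per1 and Per2 have r = 0.68, or 0.44 without that mouse.

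Other genes of the clock were read from a list of 18, among them related receptors and activators, further D-box factors, the E-box repressors Bhlhe40 and Bhlhe41, kinases and ligase parts that act on PER and CRY, the deubiquitinase Usp2 and Timeless. All 18 were tested, none passed in either direction at an unadjusted p of 0.05 in edgeR, and 8 were lower under Ant-134, with a median log2 fold change of 0.016. Of all tested genes 4.18% passed and 48.8% were lower, so that no call among so few genes is little information. Tef, a D-box activator of the same family as DBP, was at 358 ± 10.2 CPM under Ant-134 and 355 ± 7.96 CPM under Scr (log2 fold change 0.012 ± 0.040, edgeR p = 0.772; exact permutation p = 0.659). Hlf, the other family member, was at 105.4 ± 19.3 and 106.4 ± 7.98 CPM (-0.014 ± 0.12, edgeR p = 0.911; exact permutation p = 0.865). Csnk1d and Csnk1e, the casein kinases that phosphorylate PER, were at 157.9 ± 1.25 against 155.6 ± 3.86 CPM and at 85.3 ± 4.38 against 86.9 ± 6.35 CPM, with log2 fold changes of 0.021 ± 0.037 and -0.027 ± 0.054.

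The genes most like Dbp over the 9 mice, among 15999 genes outside both clock lists with a mean of at least 1 CPM, were Mks1 with r = 0.94, Ube2t with 0.94, Hscb with 0.93, Slc3a2 with 0.93 and Smarcd3 with 0.92. Without Scr replicate 3 these values were 0.86, 0.89, 0.93, 0.85 and 0.80. Of the clock genes, Ciart ranked 13 and Nr1d1 ranked 28 for likeness to Dbp among all 16026 genes, from r of 0.90 and 0.88 that were 0.68 and 0.60 without Scr replicate 3. Nr1d2, the paralog of Nr1d1, had r = 0.78 over the 9 mice. It too was highest in Scr replicate 3, at 77.3 CPM, and its r without that mouse was not computed. Tef and Hlf, of the same family as DBP, had r = -0.20 and 0.18. The genes most like Arntl were Sec63 with r = 0.98, Rab11fip3 with 0.96, Hivep1 with 0.96, Dab2ip with 0.95 and Pde4d with 0.95, while Per2 was near the far end of that order with r = -0.73. These correlations are the highest of many over 9 points and are given as a description.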

How the data were processed

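RNA-seq of the hippocampus of 9 N4 mice was analysed, 5 given Ant-134 and 4 given Scr, as named in the sample labels. Libraries were poly-A selected and read in pairs. The authors mapped clean reads to GRCm38 (mm10) with HISAT2 2.0.5, counted them per gene with featureCounts 1.5.0-p3 and deposited unnormalized counts. CASAVA 1.8 is also named in the submitters' processing notes. The authors also deposited FPKM, counts per gene length and per library total, which equalled that quotient up to a constant per library of 0.978 to 1.01. The annotation release and strand setting are not given in the sources used here.

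Counts were tested with edgeR 4.0.16 in R 4.3.3 (filterByExpr with a minimum count of 10, TMM, robust quasi-likelihood test, no covariate), with Benjamini-Hochberg adjustment over 19782 genes. A call was an unadjusted p below 0.05, the study's threshold. Standard errors came from the F statistic. For single genes a two-sided exact permutation test ran over all splits of the mice, and correlations with exact permutations of 9 mice, on log2 CPM with a prior count of 2. Alternatives were DESeq2 1.42.0, its size factors, other filters, no robust estimation, limma 3.58.1 on log2 FPKM with a pseudocount of 1 or 0.1, the replicate block and leaving out each mouse. The pseudocount makes FPKM fold changes of low genes too small. In simulated data with changes of 0.5 (log2) in 200 genes, 19489 genes were tested after the filter. Of the changed genes among them, edgeR called 74.0% at the unadjusted threshold. That change is larger than the largest fitted for a clock gene, -0.30 for Dbp. A floor of 3 counts corresponds to 0.0709 to 0.107 CPM and covers counting error only. No pair of libraries of a group agreed within sampling noise, with a chi-square per gene of 8.46 to 21.3.

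The members, the gene lists and the tests were chosen with earlier results of these data known. The rule for named genes took all 10 members, the 4 most abundant of the other clock genes, the 5 genes most like Dbp and Arntl each, Fos from the activity-regulated genes, and Ube3a. Nr1d2 lies outside this rule and was chosen after its values were seen, and other genes of the lists are named as examples or markers. Promoters and miR-134 came from RefSeq (GRCm38.p6), and gene positions and 3′ UTRs from GENCODE M21, where all 10 members had the same position as in the deposited tables.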

Additional observations from a re-analysis of the deposited data

Results flagged for a closer look

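Of 28 groups of values checked for a single sample far from the rest, 4 were marked, and chance alone would mark about 1 in 20, or 1.4 here. Cry2 was at 134 CPM in Scr replicate 3 and between 119.4 and 120.5 CPM in the other 3 Scr mice. Nr1d1 was at 84.3 CPM in Scr replicate 3 and between 70.1 and 71.9 CPM in the other 3 Scr mice. In the Ant-134 group Nr1d1 was at 65.05 CPM in replicate 1 and between 71.95 and 74.25 CPM in the other 4 mice. The summed level of the activity-regulated genes was 706.5 CPM in Ant-134 replicate 5 and between 493.2 and 546.2 CPM in the other 4 mice of that group.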

How the results depend on the processing

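Fits other than those that left out a mouse kept the direction and the side of the threshold for 85 of 90 values, and all fits together for 156 of 180. Without a filter on low counts 1775 genes passed the unadjusted threshold in place of 827, 1211 lower and 564 higher, and limma on log2(FPKM + 0.1) without a filter gave 1510, 931 lower and 579 higher. With a filter on FPKM, limma gave 450 genes higher at a pseudocount of 1 and 471 at 0.1, against 294. The count of clock genes called rose from 0 to 1, which was Dbp, in DESeq2 (log2 fold change -0.298), in edgeR without robust estimation (-0.303) and with the replicate block (-0.324). Over all genes, 1027 of 37435, 875 of 19782 and 808 of 19782 passed in these fits. Per1 turned to 3.7e-04 with DESeq2's size factors and to 0.0029 in DESeq2. Pairs of clock genes with p below 0.05 fell from 7 to 4 after centring and to 1 without the 2 farthest mice.

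Leaving out each mouse gave between 629 and 973 genes, 435 to 704 lower and 194 to 386 higher, between 0 and 2 clock genes called, between 1 and 9 pairs and between 6 and 8 members above the median spread. The lowest count of genes and of pairs came without Scr replicate 3, and both calls came without Scr replicate 1. Log2 fold changes ran from -0.061 to 0.053 for Per1, -0.083 to 0.023 for Per2, -0.13 to -0.046 for Per3, -0.043 to 0.044 for Arntl, -0.027 to 0.031 for Clock, -0.12 to -0.014 for Cry1, -0.049 to 0.014 for Cry2, -0.089 to 0.0050 for Nr1d1, -0.40 to -0.14 for Dbp and -0.33 to -0.069 for Ciart. The cause of these changes was not tested beyond the mouse or setting named.

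The labels name no pairing of mice by replicate number. The deviations of same-numbered mice correlated at -0.198, -0.0498, -0.091 and 0.0886, and those of other pairs between -0.383 and 0.394. So few values cannot decide whether the numbers pair the mice. With the replicate block 466 genes were lower and 342 higher, and no clock gene other than Dbp changed its call. Cry1 and Ciart, with 208 to 439 counts per library, had the largest counting error.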
